A study of Mus musculus with 6 samples.

Results

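The interleukin 6 (IL-6) cytokine family, its signal transducer STAT3 and a pair of fibroblast cytokines, Il33 and Csf1, were followed in RNA-seq of mouse cells labelled as primary fibroblasts from lung, with and without depletion of calumenin. The 10 genes were chosen by symbol (Il6, Il11, Lif, Il6st, Lifr, Osmr, Stat3, Socs3, Il33 and Csf1), and all 10 were found among the 54532 genes of the deposited table. The 6 libraries formed 2 groups of 3, calumenin KD (KD1 to KD3) and NC (NC1 to NC3). The titles name the groups KD and NC, whereas the descriptions name the same libraries KO and WT. The labels give neither the means of depletion, nor what NC stands for, nor the strain or age of the mice or whether a line is a clone. Nothing in them ties replicates to separate cultures or animals, so each p-value measures the spread between these libraries, which may be technical. The series refers to both knockout and knockdown, but KD is the only depleted group among these 6 libraries. It asked what loss of calumenin does to senescence and fibrosis signalling.

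IL-6 family cytokines signal through receptor complexes that share the subunit gp130, encoded by Il6st. IL-6 and IL-11 first bind their own alpha receptors, whereas LIF and cardiotrophin-1 join gp130 to the LIF receptor and oncostatin M in the mouse joins it mainly to the oncostatin M receptor. JAK kinases bound to these receptors phosphorylate STAT3, which enters the nucleus and switches on target genes, among them Socs3, whose product binds gp130 and shuts the signal down. In lung fibroblasts IL-6, IL-11 and LIF are studied as inflammatory and profibrotic signals. IL-33 is a nuclear alarmin released by damaged cells, and CSF1 is the growth factor that keeps macrophages alive. RNA levels do not measure STAT3 phosphorylation or secreted protein.

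Calu, the gene for calumenin, averaged 13.4 ± 1.07 FPKM in KD and 224 ± 3.43 FPKM in NC (fragments scaled to gene length and library size, SD, n = 3 each). No KD library came near the NC range. Depth was 15907164 to 18312888 reads per library. Library KD1 stood apart from KD2 and KD3: the mitochondrial share of its reads was 2.56%, against 1.6% to 1.97% in the other 5 libraries, and 5220 genes passed the test without it, against 3016 of 12299 with it. The fibroblast label was met in part. Of 12 fibroblast markers 8 averaged 1 FPKM or more, with Col1a1, Col1a2, Fn1 and Vim among them, but Lum had 0 reads in all libraries and Dcn had 0 reads in KD and 3 in NC. The 12 markers summed to 1687 to 1735 FPKM in KD and 1420 to 1473 FPKM in NC. Of the 8 that were tested 4 rose and 2 fell, beside 10.9% higher and 13.6% lower over all tested genes. Col1a1 averaged 283.5 FPKM in KD and 149 FPKM in NC (limma adjusted p = 0.000193), whereas Col3a1 averaged 10.9 FPKM in KD and 24.6 FPKM in NC (adjusted p = 0.000111). The summed level of 14 macrophage and leukocyte markers was 6.03 to 9.24 FPKM in KD and 9.97 to 11.0 FPKM in NC. The defining leukocyte gene Ptprc had 6 reads in KD and 8 in NC, and the macrophage gene Adgre1 had 0. Nearly all of that sum came from Cd14 (251 reads in KD and 344 in NC, with KD all below NC, adjusted p = 0.0611), Cd68 (181 in KD and 223 in NC) and Lyz2 (100 in KD and 93 in NC). Sums over 10 epithelial markers (0.238 to 1.05 FPKM in KD, 0.439 to 0.620 in NC) and over 7 endothelial markers (0.166 to 0.204 in KD, 0.148 to 0.196 in NC) were low. Sums over 7 smooth muscle and pericyte markers were 45.8 to 60.7 FPKM in KD and 54.7 to 58.8 in NC, most of it Cspg4 (40.4 to 54.6 FPKM in KD and 48.0 to 52.5 in NC), while Acta2 had 6 reads in KD and 3 in NC. In bulk libraries fewer cells of a type and less RNA per cell cannot be told apart, and the part of these markers in the results was not tested.

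The shared receptor Il6st, the LIF receptor, LIF itself and Stat3 were higher in KD cells, by factors of 1.33 to 2.25 in FPKM. Il6, at about 1 FPKM, and Il33, close to the limit of detection, had lower values in every KD library than in any NC library. Csf1, by far the most abundant of the 10, differed by less than the spread between replicates. The test was limma on log2(FPKM + 1), with Benjamini-Hochberg adjustment over the 12299 genes that averaged 1 FPKM or more, and a call means an adjusted p under 0.05. By it, 7 of the 10 genes could be tested, 4 were higher and 0 were lower in KD, while 24.5% of all tested genes passed, 10.9% higher and 13.6% lower. The 3 genes under the filter (Il6, Il11 and Il33) were not part of this count. All 10 genes are protein-coding. In a fit of protein-coding genes only, 4 of them were higher and 0 lower, beside 13.6% and 16.9% of all genes in that fit. Of all 10 genes 6 had KD values that did not overlap the NC values, in a background of 36.5% of genes with at least 10 reads. The count of higher genes was 2 (Lifr and Il6st) without KD2, NC1 or NC3, with 4.82%, 5.08% and 5.29% of all tested genes higher. It was 3 without KD3 or NC2 (8.18% and 4.8% of all genes) and 5 without KD1 (20.9%).

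**Figure D1:**
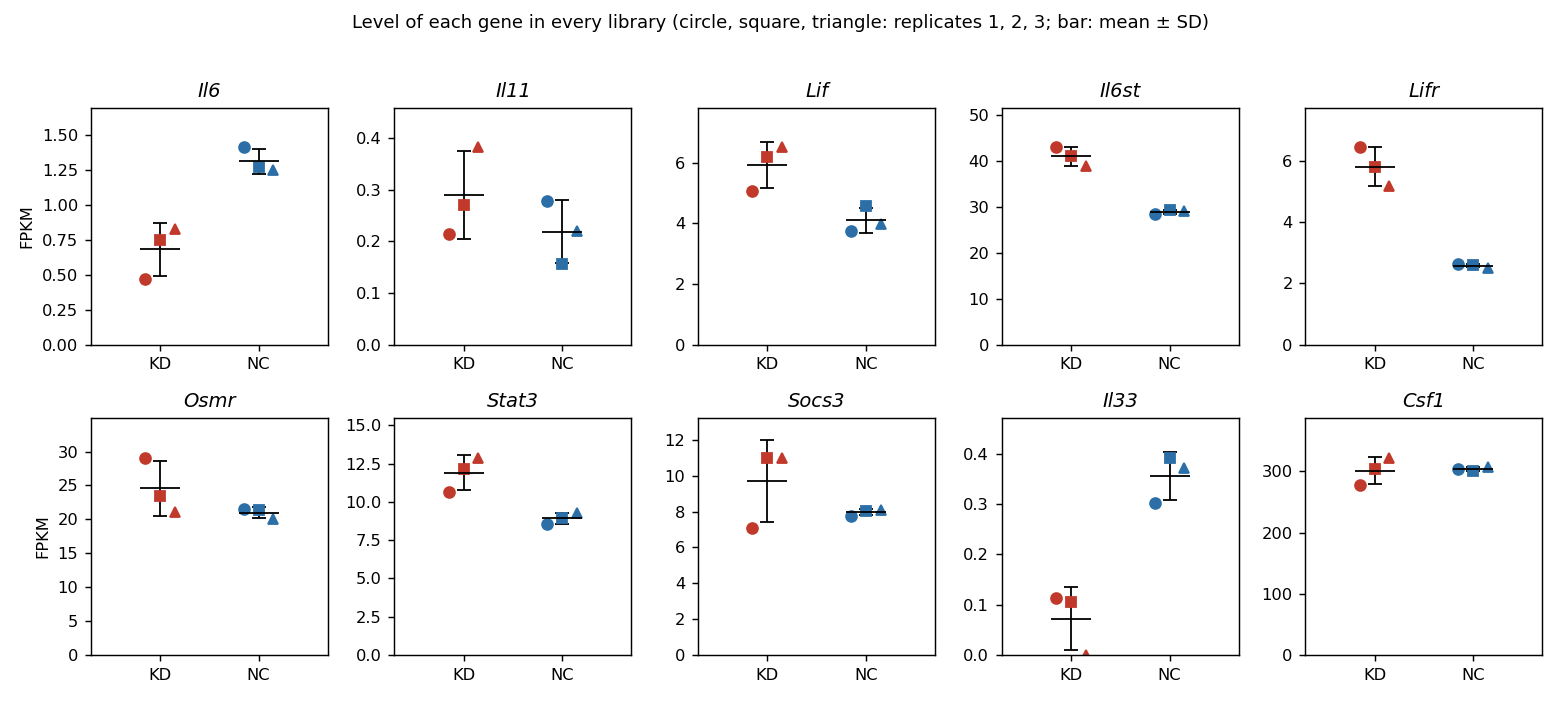
FPKM of each of the 10 genes in every library, with KD left of NC, a symbol per replicate and the mean with its SD. The y axes start at 0 and differ between panels. Lif, Il6st, Lifr and Stat3 are higher in all KD libraries, Il6 and Il33 are lower in all of them, and KD1 (circle) lies apart in Osmr and Socs3.

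Among the ligands, Lif rose. Lif lies at positions 4257557 to 4272514 of chromosome 11 (plus strand, ENSMUSG00000034394, mm10). LIF is a pleiotropic cytokine that acts through the LIF receptor and gp130. Its RNA had 5.07, 6.18 and 6.51 FPKM in KD1, KD2 and KD3, against 3.76, 4.56 and 3.99 FPKM in NC1, NC2 and NC3. Every KD value was above every NC value, with the lowest in KD1. The difference on the log2(FPKM + 1) scale was 0.44 (SE 0.10, limma adjusted p = 0.0259). The call was lost without KD2 (adjusted p = 0.0954), KD3 (0.0667), NC1 (0.0956) or NC3 (0.0868), with the difference staying between 0.37 and 0.53 whichever library was left out.

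Il6 had lower values in KD. Il6, at positions 30013114 to 30019981 of chromosome 5 (plus strand, ENSMUSG00000025746), encodes the inflammatory cytokine after which the family is named. It had 0.467, 0.746 and 0.828 FPKM in KD1, KD2 and KD3, against 1.41, 1.27 and 1.25 FPKM in NC1, NC2 and NC3. All KD values lay below all NC values, and KD kept 52.0% of the NC mean. These values rest on 85 reads in KD and 152 in NC, a ratio of depth-scaled counts of 0.529 with an exact 95% interval of 0.400 to 0.694 that covers counting error only. The mean over all libraries was just under the filter, so the main test gave no call, and an exact two-sided permutation test over the 6 libraries gave p = 0.1, the smallest p that 3 against 3 allows. With genes from 0.5 FPKM admitted, limma gave a difference of -0.46 (adjusted p = 0.0348) in a background of 12.4% of genes called lower, and with no filter adjusted p = 0.0835. Voom on the recovered reads of genes with at least 10 reads called Il6 and Il33 lower, with 9.77% of genes so called.

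Il11 was near the limit of detection in both groups. Il11, on the minus strand of chromosome 7 at 4772373 to 4782857 (ENSMUSG00000004371), encodes a cytokine studied as a driver of fibroblast activation. It had 0.215, 0.270 and 0.382 FPKM in KD1 to KD3 and 0.278, 0.156 and 0.220 FPKM in NC1 to NC3, from 30 reads in KD and 21 in NC. The groups overlapped, and 3 reads of this gene correspond to between 0.0806 and 0.0941 FPKM. The ratio of depth-scaled counts was 1.35 with an exact 95% interval of 0.748 to 2.48, for counting error only. No difference was detected, and the interval leaves room for a change in either direction.

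The windows around the start sites of Il6 and Lif, genes of the same family that lay on opposite sides of NC, are shown with that of the feedback gene Socs3. They come from RefSeq (GRCm38.p6, the assembly of mm10), hold 250 bases before the start and 50 after it, and read 5′ to 3′ along the gene. Capitals mark matches on either strand to an AP-1 motif (TGANTCA), an NF-kB motif or a STAT dimer motif (TTCNNNGAA). The windows are chr5:30012864-30013163 (plus strand) for Il6, chr11:4257318-4257617 (plus strand) for Lif and chr11:117969317-117969616 (minus strand) for Socs3.
Il6: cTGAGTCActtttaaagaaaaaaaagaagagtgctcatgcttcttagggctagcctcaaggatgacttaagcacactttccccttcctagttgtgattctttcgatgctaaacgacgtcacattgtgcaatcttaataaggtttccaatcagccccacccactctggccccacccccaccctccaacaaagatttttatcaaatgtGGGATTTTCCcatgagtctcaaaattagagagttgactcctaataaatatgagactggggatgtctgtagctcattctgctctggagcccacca
Lif: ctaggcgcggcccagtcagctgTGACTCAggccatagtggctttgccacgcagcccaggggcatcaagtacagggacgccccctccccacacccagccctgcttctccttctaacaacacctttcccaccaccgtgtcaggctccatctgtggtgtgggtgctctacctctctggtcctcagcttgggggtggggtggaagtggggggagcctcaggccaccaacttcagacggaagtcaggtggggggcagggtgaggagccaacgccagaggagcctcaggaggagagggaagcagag
Socs3: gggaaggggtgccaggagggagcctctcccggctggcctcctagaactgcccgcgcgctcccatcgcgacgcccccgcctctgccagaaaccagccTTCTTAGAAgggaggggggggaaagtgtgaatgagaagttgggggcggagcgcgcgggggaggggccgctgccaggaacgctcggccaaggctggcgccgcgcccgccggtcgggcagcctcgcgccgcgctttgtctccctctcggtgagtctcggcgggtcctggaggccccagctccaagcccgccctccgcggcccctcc

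The Il6 window held an AP-1 match whose first base lay 249 bases before the start, and an NF-kB match at 44 bases before it. Lif held an AP-1 match at 228 bases and Socs3 the STAT match at 154 bases before the start. The RefSeq start of Socs3 lies 681 bases inside the gene as deposited, and the bases after it were not found in a GENCODE transcript of the gene, so its window is not the region before the deposited start. RefSeq gave 13 windows for the 10 genes, 4 with an AP-1 match, 2 with an NF-kB match and 1 with a STAT match. Among all 32851 windows of the table the shares were 7.81% for AP-1, 1.63% for NF-kB and 8.30% for STAT. None of these motifs was found in the windows of Lifr, Il6st, Stat3 or Il33, and both Lifr windows lie at least 38958 bases inside the deposited gene. A match is a description of letters and not evidence of binding.

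Among the receptors Lifr and Il6st rose and Osmr did not pass. Lifr, at positions 7090614 to 7197489 of chromosome 15 (plus strand, ENSMUSG00000054263), encodes the subunit that gives LIF and cardiotrophin-1 their specificity. It had 6.43, 5.80 and 5.17 FPKM in KD1, KD2 and KD3, against 2.62, 2.59 and 2.51 FPKM in NC1, NC2 and NC3. The lowest KD library was well above the highest NC library, and the mean was 5.80 ± 0.634 FPKM in KD and 2.57 ± 0.0566 FPKM in NC (SD, n = 3 each). The log2(FPKM + 1) difference was 0.92 (SE 0.09, limma adjusted p = 0.000795), and 3.46% of tested genes had as large a difference in either direction. Leaving out any library kept it between 0.86 and 0.99, with adjusted p of at most 0.00753.

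Il6st, at positions 112464070 to 112510086 of chromosome 13 (plus strand, ENSMUSG00000021756), had 43.1, 41.2 and 39.0 FPKM in KD1, KD2 and KD3, against 28.5, 29.4 and 29.1 FPKM in NC1, NC2 and NC3. The groups were far apart relative to their spread, with a log2 difference of 0.49 (SE 0.06, limma adjusted p = 0.00196) that passed without any single library (adjusted p at most 0.0176). Osmr, which lies near Lifr on the minus strand of chromosome 15 at 6813577 to 6874969 (ENSMUSG00000022146), did not pass. Its levels were 29.1, 23.5 and 21.1 FPKM in KD1, KD2 and KD3 and 21.6, 21.4 and 20.02 FPKM in NC1, NC2 and NC3. Only KD1 and KD2 exceeded all NC libraries, and KD3 lay within the NC range. The log2 difference was 0.21 (95% interval -0.07 to 0.48, limma adjusted p = 0.232), and 0.08 without KD1.

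**Figure D2:**
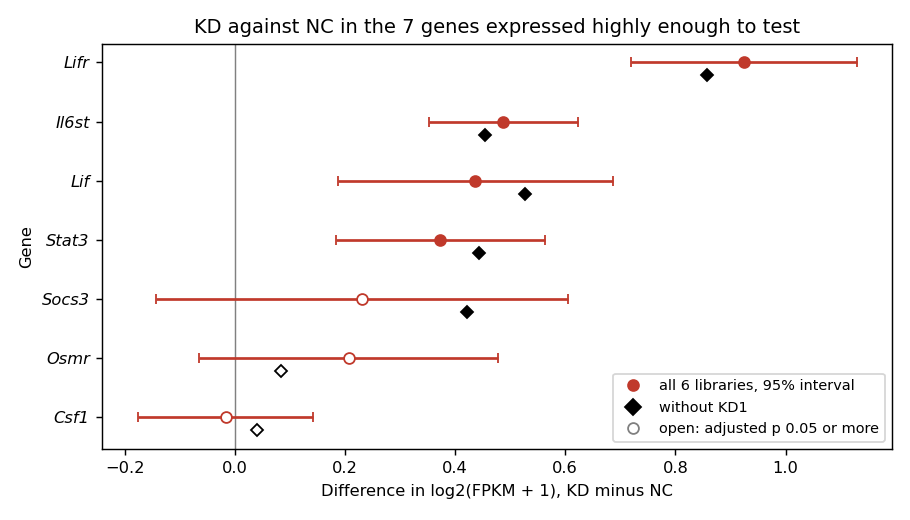
Difference in log2(FPKM + 1), KD minus NC, for the 7 genes that could be tested, with limma's 95% interval for all 6 libraries (circles) and the estimate without KD1 (diamonds). Filled symbols passed at an adjusted p under 0.05. Lifr lies farthest from 0 at 0.92, Csf1 lies at -0.02, and the Socs3 estimate moves to 0.42 without KD1.

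Ratios between receptor genes within a library do not depend on a scaling by 1 factor per library. Lifr relative to Il6st was 0.149, 0.141 and 0.133 in KD1, KD2 and KD3, against 0.0920, 0.0881 and 0.0862 in NC1, NC2 and NC3, a 1.59-fold higher mean in KD. Osmr relative to Il6st was 0.542 to 0.676 in KD and 0.687 to 0.757 in NC, lower in every KD library, though KD1 came close to NC3. Il6ra, the alpha receptor that IL-6 needs and a gene outside the 10, relative to Il6st was 0.0244 to 0.0362 in KD and 0.0695 to 0.0802 in NC. None of the 3 ratios overlapped between groups, and the exact permutation p was 0.1 for each, the smallest that the design allows. For Il6ra this was already fixed, since its KD values were all below NC and those of Il6st all above. Of all tested genes 44.2% did not overlap on their own, and the share over other gene ratios was not computed.

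**Figure D3:**
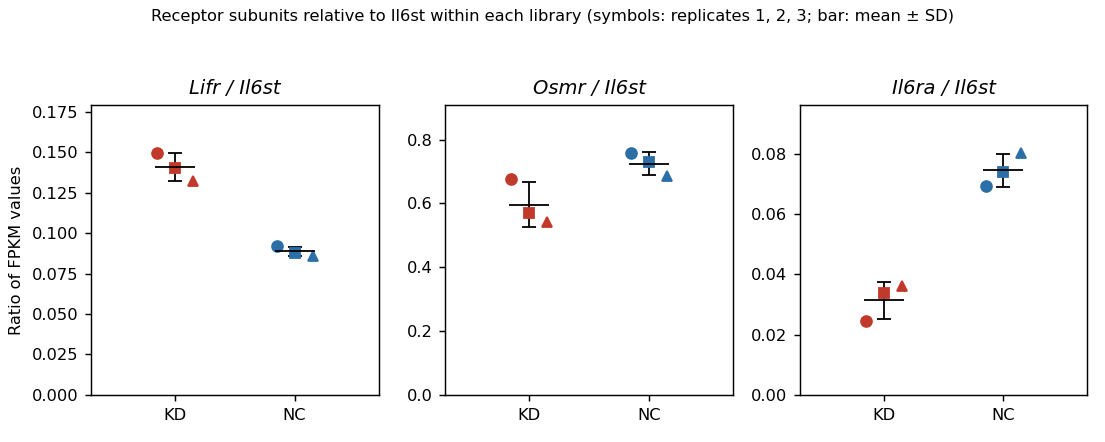
Ratio of the FPKM of Lifr, Osmr and Il6ra to that of Il6st in each library, KD left of NC, with a symbol per replicate and the mean with its SD. The y axes start at 0. Lifr is higher relative to Il6st in KD (mean 0.141 in KD and 0.0888 in NC), while Osmr and Il6ra are lower relative to it.

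Stat3 rose, and Socs3 passed the test only without KD1. Stat3, on the minus strand of chromosome 11 at 100885098 to 100939540 (ENSMUSG00000004040), encodes the transcription factor of the pathway. It had 10.7, 12.1 and 12.9 FPKM in KD1, KD2 and KD3, against 8.58, 8.93 and 9.30 FPKM in NC1, NC2 and NC3. All KD values were above all NC values, with a log2 difference of 0.37 (SE 0.08, limma adjusted p = 0.0175). The call was lost without KD2 (adjusted p = 0.0710), NC1 (0.0742), NC2 (0.0690) or NC3 (0.0509). Stat3 overlaps Stat5a on the opposite strand (17.5 FPKM in KD and 18.4 in NC). The overlap runs only from position 100885098 to 100885169, a small part of the 9527 bases counted for Stat3. Since the strand setting of the counting is not given, reads in this overlap cannot be told apart.

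Socs3, the feedback inhibitor, lies on the minus strand of chromosome 11 at 117966079 to 117970047 (ENSMUSG00000053113). It had 7.07, 11.01 and 11.02 FPKM in KD1, KD2 and KD3, against 7.77, 8.05 and 8.07 FPKM in NC1, NC2 and NC3. KD1 was below all NC libraries while KD2 and KD3 were above them. With all 6 libraries the log2 difference was 0.23 (95% interval -0.14 to 0.60, limma adjusted p = 0.324), and without KD1 it was 0.42 (adjusted p = 0.00131).

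KD1 deviated in opposite directions among these genes. Of the 3 KD libraries it was the lowest for Il6, Il11, Lif, Stat3, Socs3 and Csf1 and the highest for Il6st, Lifr, Osmr and Il33. For Il11 (8, 9 and 13 reads in KD1, KD2 and KD3) and Il33 (6, 5 and 0 reads) the order rests on too few reads to be read as a deviation of KD1. The 3 receptor genes are long, with deposited gene lengths of 11099, 10776 and 12113 bases for Il6st, Lifr and Osmr. Among all 972 tested genes of at least 10000 bases, KD1 exceeded the mean of KD2 and KD3 by a median of 0.13 on the log2 scale, against -0.02 for the shorter genes. The KD minus NC difference of those long genes had a median of -0.02, and of -0.06 without KD1. Without KD1 the difference was 0.86 for Lifr, 0.45 for Il6st and 0.08 for Osmr. The part of length in these differences was not tested.

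The fibroblast cytokines lay at opposite ends of the scale. Csf1, on the minus strand of chromosome 3 at 107741048 to 107760469 (ENSMUSG00000014599), had 278, 303 and 323 FPKM in KD1, KD2 and KD3, against 304, 302 and 308 FPKM in NC1, NC2 and NC3. The NC values lay inside the KD range. Only 0.642% of tested genes in KD and 0.699% in NC were at or above its mean. The log2 difference was -0.02 (95% interval -0.18 to 0.14, limma adjusted p = 0.879), an interval that leaves room for a change of that size in either direction.

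Il33, at positions 29925114 to 29960718 of chromosome 19 (plus strand, ENSMUSG00000024810), had 0.112, 0.105 and 0 FPKM in KD1, KD2 and KD3, against 0.302, 0.392 and 0.372 FPKM in NC1, NC2 and NC3. All KD values were below all NC values, from 11 reads in KD and 49 in NC. The 0 reads of KD3 allow a level of up to 0.0615 FPKM, by a limit of 3 reads. The ratio of depth-scaled counts was 0.212, with an exact 95% interval of 0.0995 to 0.414 for counting error only. Il33 was under the filter, and with no filter limma gave an adjusted p = 0.0234 in a background of 5.37% of 28280 genes called lower. With 3 libraries a group the exact permutation p was 0.1, the smallest possible.

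Ordered by mean FPKM, both groups began with Csf1, Il6st, Osmr, Stat3, Socs3, Lif, Lifr and Il6. In KD, Stat3 and Socs3, and likewise Lif and Lifr, had overlapping ranges, whereas in NC no neighbours in the order overlapped. Lif had 5.92 FPKM beside 5.80 for Lifr in KD, against 4.10 beside 2.57 in NC. The last places were Il11 and Il33 in KD (0.289 and 0.0723 FPKM) and Il33 and Il11 in NC (0.355 and 0.218 FPKM).

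The pattern over the 6 libraries most like that of Lifr, by Euclidean distance between centred log2(FPKM + 1) values among 10297 protein-coding genes, was that of Ulbp1 (distance 0.105), a gene for a ligand of the NKG2D receptor. Ulbp1 averaged 20.7 FPKM in KD and 10.7 FPKM in NC. Celf2 (0.190), Nfib (0.190), Casp4 (0.193) and Timp2 (0.197) came next. The measure favours genes with a difference of the same size, so their rise is fixed by the choice.

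Other genes of the pathway were read from 7 lists with 87 genes, of which 53 were tested, 12 were higher and 13 lower in KD. These were 22.6% and 24.5% of the tested list genes, beside 10.9% higher and 13.6% lower over all tested genes, and the same shares stand beside each list count. The 53 genes are all protein-coding. In a fit of protein-coding genes only, 14 were higher and 13 lower, beside 13.6% and 16.9% of all genes in that fit. Counts with a library left out stand beside 20.9% higher and 21.5% lower over all genes without KD1, and 8.18% and 11.8% without KD3. Without KD2 or any NC library these shares were 4.8% to 5.29% higher and 7.5% to 7.99% lower. Among other IL-6 family ligands 2 of 9 could be tested. Ctf1, the gene for cardiotrophin-1, rose, with 7.29, 6.45 and 5.70 FPKM in KD1 to KD3 against 3.14, 2.76 and 2.32 FPKM in NC1 to NC3 (log2 difference 1.001, SE 0.11, limma adjusted p = 0.00185). The groups did not overlap. Clcf1, a ligand that acts through the CNTF receptor with LIFR and gp130, averaged 17.9 FPKM in KD and 14.3 FPKM in NC (adjusted p = 0.0641), and passed without KD1, under equal totals, quantile scaling and voom, and among protein-coding genes only. Osm, the gene for oncostatin M, had 0 reads in all libraries.

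Among other receptors 2 of 6 could be tested. Il6ra fell, with 1.05, 1.39 and 1.41 FPKM in KD1 to KD3 against 1.98, 2.17 and 2.34 FPKM in NC1 to NC3, a log2 difference of -0.47 (limma adjusted p = 0.0221). Its groups did not overlap, but the call ended without KD2 (adjusted p = 0.0588), NC1 (0.0551), NC2 (0.0805) or NC3 (0.0846), with no filter (0.0710) and with chromosome medians removed (0.0508). Il11ra1, the IL-11 alpha receptor, had 1.87 FPKM in KD and 1.89 in NC (adjusted p = 0.930). Cntfr, the CNTF receptor, had 1 read in KD and 0 in NC.

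Of 8 tested JAK kinases and other STATs 1 rose and 2 fell, with a median log2 difference of -0.07 beside 0.01 over all tested genes. Stat2, which carries interferon signals, fell to 18.7 FPKM in KD, against 53.6 FPKM in NC (log2 difference -1.47, limma adjusted p = 2.31e-05). Stat6, the IL-4 and IL-13 signal transducer, fell to 21.4 FPKM in KD, against 27.8 in NC. Jak3 rose to 10.6 FPKM in KD, against 7.79 in NC, and Jak1, the main kinase bound to gp130, had 37.8 FPKM in KD and 39.5 in NC (adjusted p = 0.504). Without KD1 2 rose and 3 fell, 0 rose without any other single library, and 1 fell without NC1, NC2 or NC3, where Stat6 lost its call. With chromosome medians removed Stat6 (adjusted p = 0.120) and Jak3 (0.0540) did not pass, nor did Jak3 with no filter (0.0522).

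Of 12 tested feedback inhibitors and phosphatases 3 rose and 3 fell, with a median of 0.04. Socs1, an inhibitor of JAK kinases downstream of interferon, fell to 1.90 FPKM in KD, against 3.10 in NC (limma adjusted p = 0.0140). Socs4 fell to 9.83 FPKM in KD, against 15.1 in NC, and Pias4, a SUMO ligase that restrains STAT proteins, fell to 7.70 FPKM, against 11.4 in NC. Socs7 rose to 6.87 FPKM in KD, against 4.63 in NC (adjusted p = 0.00498). Without KD2 or NC3 1 rose and 1 fell, without NC2 1 rose and 2 fell, and without NC1 2 of each did. Socs1 lost its call without KD2, NC2 or NC3, Socs4 without KD2, and Pias4 without NC1 or NC3 or with no filter (adjusted p = 0.0509). With chromosome medians removed neither Socs4 (0.0502) nor Pias4 (0.0829) passed.

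Of 19 tested genes listed as responsive to STAT3 5 rose and 3 fell, with a median of 0.08. Lrg1, an acute-phase glycoprotein gene, rose to 8.75 ± 0.176 FPKM in KD, against 2.66 ± 0.252 FPKM in NC (SD, n = 3 each), a log2 difference of 1.42 (SE 0.07, limma adjusted p = 8.11e-05). Il4ra, the IL-4 receptor alpha chain, rose to 7.08 FPKM in KD, against 4.31 in NC, and Timp1, a metalloproteinase inhibitor, to 46.0 FPKM, against 30.6 in NC. The chemokine gene Ccl2 fell to 170 FPKM in KD, against 257 in NC. Many of these genes also answer to other factors. Counts were 8 and 3 without KD1, 3 and 2 without KD2, NC1, NC2 or NC3, and 5 and 2 without KD3.

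Of 9 tested genes of IL-33 and IL-1 signalling 1 rose and 4 fell, with a median of -0.22. The cytokine gene Il18 fell to 0.796 FPKM in KD, against 2.11 in NC, and the kinase gene Irak2 to 1.57 FPKM, against 2.76 in NC. Il18 rests on 43 reads in KD and 104 in NC. Its KD mean was under 1 FPKM, so it passed the filter only through NC. The adaptor gene Myd88 fell to 17.8 FPKM in KD, against 23.9 in NC, and the TNF receptor gene Tnfrsf1a to 30.5 FPKM, against 39.7 in NC. The limma adjusted p was between 0.00435 and 0.0290 for these 4. Il18 and Tnfrsf1a lost their calls without KD2, NC2 or NC3, and Tnfrsf1a also without NC1. With chromosome medians removed Irak2 (adjusted p = 0.0549) and Tnfrsf1a (0.247) did not pass, and with no filter Il18 (0.0567) and Tnfrsf1a (0.0662) did not. The gene that rose, Irak1 (19.8 FPKM in KD and 16.0 in NC, adjusted p = 0.0492), lost its call without KD2, KD3, NC1, NC2 or NC3, with no filter or a filter of 0.5 FPKM, with no trend, with robust moderation and with chromosome medians removed. Il1rl1, which encodes the IL-33 receptor ST2, had 6 reads in KD and 14 in NC.

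Among colony-stimulating factors and their receptors 1 of 7 could be tested. Il34, which encodes the other ligand of the CSF1 receptor, rose to 6.17 FPKM in KD, against 4.40 in NC (log2 difference 0.41, SE 0.08, limma adjusted p = 0.0127), a call lost without NC2 (0.0596) or NC3 (0.0543). Csf1r, the receptor itself, had 1 read in KD and 4 in NC, beside 82570 and 76867 reads of Csf1. Csf2 had 0 reads in all libraries.

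**Figure D4:**
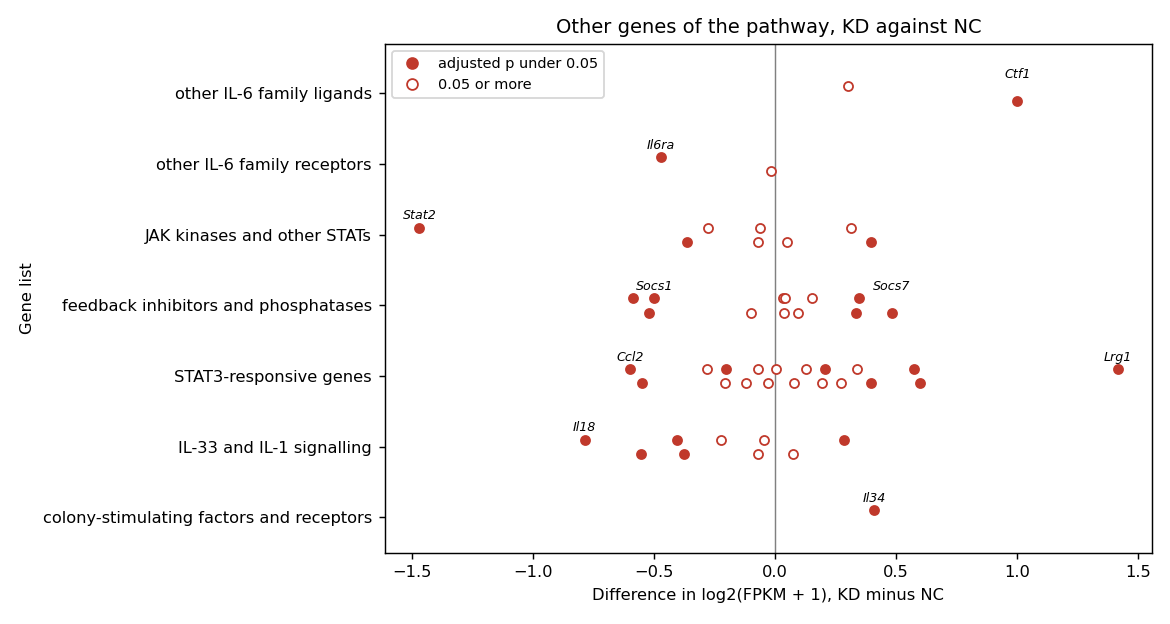
Difference in log2(FPKM + 1), KD minus NC, for each of the 53 tested genes in 7 pathway lists, a list per row. Filled points passed limma at an adjusted p under 0.05. Ctf1 and Lrg1 lie farthest to the right and Stat2 farthest to the left.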

How the data were processed

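Per the labels' protocols and the submitters' processing notes, paired-end reads were aligned with HISAT2 2.0.5, and the build was mm10. How reads were assigned to genes, with or without strand, and by which annotation is not given in the sources used here. FPKM values per gene, as the authors deposited them, came with gene lengths and positions. Multiplied by length, 100% of them were whole multiples of what 1 read is worth (tolerance 0.01), which recovered reads per gene. The library size behind the FPKM was 1.01 to 1.02 times the recovered total in KD and 0.987 to 0.996 times it in NC. FPKM thus runs slightly lower in KD relative to recovered reads.

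Groups came from the titles. Values were tested as log2(FPKM + 1) by limma 3.58.1 (R 4.3.3) with an intensity trend, for genes averaging 1 FPKM or more, adjusted by Benjamini-Hochberg at 0.05. Fold changes on this scale understate low genes. Permutation tests used scipy 1.17.1, tables pandas 2.3.3 and plots matplotlib 3.10.9. Code was tested on simulated data.

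The 10 genes and the lists were chosen with earlier results of these data known. The values of 1 listed gene are not reported here, and the lists are counted without it. From each list the text names up to 4 called genes with the largest change. Clcf1, Il11ra1, Cntfr, Osm, Jak1, Irak1, Il1rl1, Csf1r and Csf2 were added after their values were seen. Alternatives were other pseudocounts, filters and scalings, no trend, robust moderation, a replicate block, voom on recovered reads, single libraries left out and protein-coding genes only. Voom at 10 reads or more and removal of chromosome medians were added after the data were seen.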

Additional observations from a re-analysis of the deposited data

How the results depend on the processing

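The rises of Lifr and Il6st passed in every alternative in which they were tested (a filter of 5 FPKM removed Lifr), and Csf1 and Osmr passed in none. Stat3 lost its call only when a library was left out, with differences of 0.32 to 0.44 over the 6 leave-outs, and Lif also with no filter (0.44, adjusted p = 0.0683), with 0.37 to 0.53 over the leave-outs. Socs3 ranged over 0.13 to 0.42 and passed without KD1 only. Members called higher numbered 2 to 5 and members called lower 0 with a library left out. With genes of 0.5 FPKM admitted 1 member (Il6) was lower, with no filter 1 (Il33), and by voom on genes with at least 10 reads 2 (Il6 and Il33).

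The size of the difference of Il6, Il11 and Il33 depended on the pseudocount. From -0.46 for Il6, 0.08 for Il11 and -0.34 for Il33, it became -0.88, 0.29 and -1.48 with a pseudocount of 0.1, and -0.15 for Il6 and -0.078 for Il33 with one of 5. Voom gave -0.95, 0.40 and -2.73, with adjusted p of 0.0259, 0.597 and 0.0269. With chromosome medians removed Il33 was at -0.42 and Il11 changed sign to -0.0026; the cause was not tested.

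Over all genes, leaving out a library gave 590 to 2572 higher and 923 to 2648 lower genes, and among the pathway lists 5 to 18 higher and 6 to 14 lower. With chromosome medians removed 9 of the 53 tested list genes were higher and 7 lower, beside 8.76% and 11.2% of all tested genes. The cause of the shift was not tested. With the replicate number as a block 1050 genes were higher and 1383 lower (8.54% and 11.2% of all tested genes), and the same count of members, 4, was higher. Among list genes it left 8 higher and 10 lower, against 12 and 13 without it. The STAT3-responsive list had 3 higher and 2 lower, the feedback list 2 and 3, and the IL-33 and IL-1 list 0 and 2, where Il18 (adjusted p = 0.0504), Tnfrsf1a (0.0510) and Irak1 lost their calls. Same-numbered libraries correlated in their deviations at 0.0791, -0.0434 and 0.154, and 3 of 6 libraries correlated best with their own number. With so few libraries these values cannot decide whether the numbers mark pairs. Depth limits Il11 and Il33, with 51 and 60 reads in all.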
